A study of Rattus norvegicus with 418 samples.

Results

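The liver of rats given a single high oral dose of N-nitrosomorpholine was examined 6 h after exposure. N-Nitrosomorpholine is a cyclic nitrosamine that damages the liver and causes liver tumours in rodents. The arrays were chosen by their labels alone, as those of 4 rats at 300 mg/kg and of the 4 rats that received the vehicle for the same compound and time, which is 8 of the 418 arrays of the series. All 14217 genes that could be named were compared. The series covers rats exposed to 1 of 8 hepatotoxic compounds at several doses for 6, 24 or 48 h, and asks how liver expression relates to necrosis. All 8 animals were male F344/N rats aged 10 to 12 weeks. They were fasted for 12 to 18 h before exposure, and corn oil by gavage was given to both groups, with or without the compound. RNA came from flash-frozen left lateral liver lobe, with 1 array per rat, so each value belongs to a separate animal. Rat numbers below only name animals within a group and pair none of them.

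Nitrosamines are inert until hepatocyte cytochrome P450 enzymes hydroxylate the carbon beside the nitroso group, after which the molecule breaks down to species that alkylate DNA and protein. DNA damage stabilises the transcription factor p53, which switches on inhibitors of the cell cycle, DNA damage response genes and pro-apoptotic genes. Reactive metabolites also engage NRF2, the regulator of antioxidant and glutathione genes, and ATF4, the transcription factor of the integrated stress response.

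Signal was expressed as log2(signal + 16) of the scaled array signal, called log2 signal here, and every change below is a difference of log2 signals unless given as a fold. Pearson's r over all genes ran from 0.9605 to 0.9688 among the 4 dosed rats, from 0.9554 to 0.9699 among the 4 vehicle rats, and from 0.9183 to 0.9473 between a dosed and a vehicle rat. Vehicle rat 4 stood apart from the other vehicle rats, with 9.00% of probe sets at a signal under 16 against 15.1 to 16.3%. Its array was hybridised on the same day as all dosed arrays, whereas vehicle rats 1 to 3 were hybridised on another day, and for those 3 rats dose and day cannot be told apart. Values against vehicle rat 4 alone are therefore given as within-day values for the gene groups and for named genes that lost their call there. They rest on this single vehicle rat and are less precise. The 10 and 50 mg/kg groups, all hybridised on the same day as the 300 mg/kg group, gave comparisons free of this split. Rat 2 at 50 mg/kg was like vehicle rat 4, with 9.34% of probe sets under 16 against 14.5 to 16.2% in its group. Dosed rat 4 also stood apart. It had the lowest value of the 4 dosed rats in 79 of the 102 genes that were called at least 4-fold higher, against 6, 13 and 4 for rats 1, 2 and 3, and values without it are given for the groups where it lay apart and for named genes that lost their call without it. The summed signal of 13 hepatocyte markers was 548000 to 637800 in vehicle rats and 558800 to 613600 in dosed rats. Of these markers 0 rose and 3 fell. In bulk tissue, fewer cells of a type and less RNA per cell cannot be told apart.

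At 300 mg/kg, 5301 of 14217 genes (37.3%) differed from vehicle at an adjusted p under 0.05, with 2589 higher (18.2%) and 2712 lower (19.1%). At least 2-fold changes were found in 673 of the higher and 895 of the lower genes, and at least 4-fold changes in 102 and 85. The median change over all genes was -0.01 on the log2 scale with a median standard error of 0.207, and these are the background for the gene groups that follow. In 2174 genes (15.3%) all 4 dosed rats lay above all 4 vehicle rats, and in 2276 genes (16%) all lay below. Within 1 day, 3901 genes were called, of which 3431 were also called against all vehicle rats. With the day as a fixed term in a fit of all 418 arrays, 2649 were called. All 4 dosed rats had a necrosis score of 1 and all 4 vehicle rats a score of 0 (2-sided exact permutation p = 0.0286, the smallest that 4 against 4 allows). The score was 0 in the 4 rats at 10 mg/kg and 1 in the 4 rats at 50 mg/kg.

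Most targets of p53 rose. Of 27 measured targets of 34 listed, 20 rose and 2 fell, with a median change of 0.94, and the counts were 20 and 1 without dosed rat 4 and 19 and 1 within 1 day. Cdkn1a encodes p21, the inhibitor of cyclin-dependent kinases. Its log2 signal was 8.30, 8.64, 9.12 and 8.99 in the vehicle rats and 13.76, 13.86, 13.76 and 13.05 in the dosed rats. The groups were far apart, and the rise was 28.7-fold (log2 change 4.84, SE 0.222, adjusted p = 1.01e-21). Phlda3, a repressor of Akt signalling, had 8.63, 8.36, 8.85 and 9.32 in vehicle rats and 12.29, 11.98, 12.30 and 11.97 in dosed rats. It rose by 3.34 (SE 0.174, adjusted p = 7.82e-20), and all dosed rats, rat 4 included, lay close together. Ccng1, which encodes cyclin G1, rose by 3.43 and Gdf15, a secreted stress cytokine, by 3.51. Mdm2 encodes the ubiquitin ligase that degrades p53. Its values were 9.37, 9.38, 9.44 and 9.95 in vehicle rats and 11.50, 11.62, 11.62 and 11.85 in dosed rats, a rise of 2.11 (SE 0.169, adjusted p = 3.78e-14). Aen, an apoptosis-enhancing nuclease, rose by 2.14, the death receptor gene Fas by 1.24 and Bbc3, which encodes the pro-apoptotic protein PUMA, by 0.87. The 2 that fell were Fbxw7, a ubiquitin ligase subunit, by 2.03 and the damaged-DNA binding gene Ddb2 by 0.46, and the latter call was lost without dosed rat 4 (adjusted p = 0.0625) and within 1 day (adjusted p = 0.103).

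Promoters of the p53 targets were searched for the p53 half-site, a 10-base element of palindromic form, in the 250 bases before the start, on both strands. It was found in 6 of the 18 called targets that had a promoter in the RefSeq table (build GRCr8), or 33.3%, and in 6.64% of all promoters of the table. A match is a description and not evidence of binding, here and for the lists searched below. Each list was made of targets of its factor, so a share above that of all promoters is no result about these rats. The promoters of 4 strongly raised targets are printed to show the element, in 60-base windows 5′ to 3′ on the strand of the gene, with the half-site in capitals.
Cdkn1a, chr20:7150706-7150765, plus strand: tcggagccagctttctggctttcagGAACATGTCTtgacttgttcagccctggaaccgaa
Ccng1, chr10:25685067-25685126, minus strand: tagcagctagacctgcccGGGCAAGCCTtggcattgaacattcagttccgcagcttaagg
Aen, chr1:142224473-142224532, plus strand: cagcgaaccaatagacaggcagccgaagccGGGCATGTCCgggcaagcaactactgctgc
Gadd45a, chr4:97486813-97486872, minus strand: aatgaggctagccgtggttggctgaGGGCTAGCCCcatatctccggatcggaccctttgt

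The p53 targets differed in how much of their rise was already present at 10 mg/kg, a dose at which no necrosis was scored. Against vehicle, 1270 genes were called at 10 mg/kg (8.93%), with 702 higher (4.94%) and 568 lower (4%), and 4730 at 50 mg/kg (33.3%). These comparisons share the vehicle rats with that at 300 mg/kg, so the values are given side by side. Mdm2 changed by 2.28 at 10, 2.28 at 50 and 2.11 at 300 mg/kg, and Aen by 2.28, 2.32 and 2.14. The direct difference between 300 and 10 mg/kg was not called for Mdm2 (adjusted p = 0.491) or Aen (adjusted p = 0.625). Mybl1, a transcription factor of the MYB family that is not on the list, had changes of 4.02, 4.33 and 4.08. For Cdkn1a the changes were 3.35, 4.56 and 4.84, and for Phlda3 2.53, 3.35 and 3.34. Fas was lower at 300 than at 10 mg/kg, with changes against vehicle of 1.24 and 2.03 (adjusted p of the difference = 0.000256). Gadd45a, a growth arrest and repair gene, had 9.92, 10.03, 10.41 and 10.93 in vehicle rats and 13.34, 13.12, 13.25 and 11.61 in dosed rats, with a change of 0.45 at 10 mg/kg (adjusted p = 0.41) and 2.51 at 300 mg/kg. Its groups did not overlap, although dosed rat 4 lay nearest to vehicle. Ier5, an immediate early p53 target, had changes of 0.58 and 2.75.

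**Figure D1:**
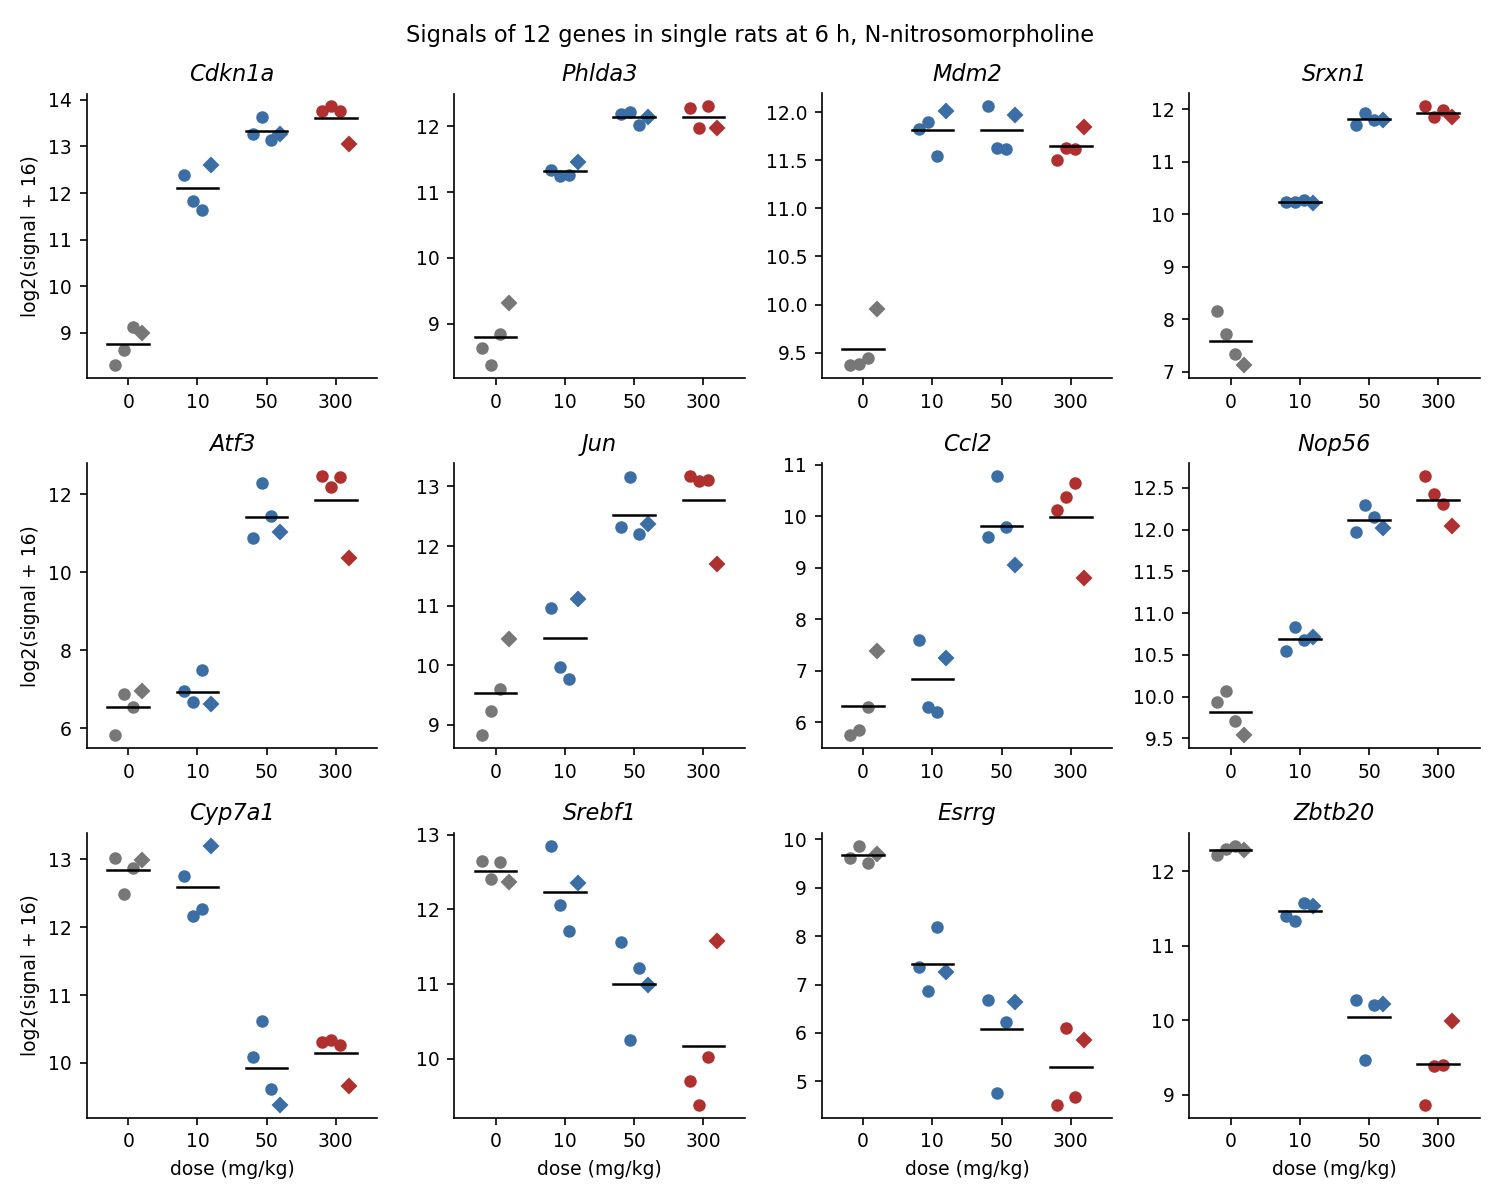
Log2(signal + 16) of 12 genes in each N-nitrosomorpholine rat at 6 h, by dose in mg/kg, with 4 rats per dose. Points are single rats, diamonds mark the rat numbered 4 in each group and bars are group means. Mdm2 and Phlda3 were already high at 10 mg/kg, Atf3 and Jun were higher at 50 and 300 than at 10 mg/kg, and Esrrg, Zbtb20, Cyp7a1 and Srebf1 were lowest at 50 or 300 mg/kg.

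Of 27 measured DNA repair genes 3 rose and 9 fell, beside 18.2% higher and 19.1% lower of all genes. Their median change was -0.28, and the within-day median was -0.11. Apex1, the endonuclease of base excision repair, rose by 1.34 (SE 0.101, adjusted p = 6.72e-15). Msh6 and Ercc1 rose by 0.31 and 0.26 (0.25 and 0.21 within 1 day). Neither was called when only the groups compared were fitted (adjusted p = 0.134 and 0.144), nor was Msh6 without dosed rat 4 (0.24, adjusted p = 0.137). Among the genes that fell were Alkbh2 by 1.06, Ung by 0.81, Pms2 by 0.71 and Parp1 by 0.55. Alkbh3 fell by 0.76 (within-day value -0.51). Mgmt, which encodes the methyltransferase that removes alkyl groups from guanine, had a change of 0.12 that was not called (adjusted p = 0.435). Outside the group, Rev3l, the catalytic subunit of the translesion polymerase zeta, fell by 1.39, and Pcna, the sliding clamp of DNA polymerase and a member of the replication group, rose by 1.66.

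Immediate early genes, which cells transcribe within minutes of growth or stress signals, had the largest median rise of the gene groups. Of 29 measured, 22 rose and 1 fell, with a median of 1.65. Atf3 encodes a stress-induced transcription factor. Its log2 signal was 5.83, 6.87, 6.55 and 6.96 in the vehicle rats and 12.46, 12.18, 12.44 and 10.36 in the dosed rats. No value overlapped, and the rise of 39.6-fold (log2 change 5.31, SE 0.433, adjusted p = 6.99e-14) was the largest of all named genes. Tnfrsf12a, the receptor for the cytokine TWEAK and not one of the 29, had 7.63, 7.19, 7.21 and 7.20 in vehicle rats and 12.97, 12.62, 12.73 and 11.46 in dosed rats, a rise of 5.14. Jun, a subunit of the transcription factor AP-1, had 8.83, 9.23, 9.60 and 10.44 against 13.17, 13.09, 13.12 and 11.70, a rise of 3.24. In each of these 3 genes rat 4 was the lowest dosed rat by more than 1 log2 unit. Maff rose by 4.41 and Klf6 by 2.84. Within 1 day, against vehicle rat 4 alone, the median change of the group was 1.13. Fos then had a change of 2.36, Myc of 1.37 and Egr1 of 1.13, and their calls were lost. That comparison has 1 vehicle rat and less precision, and the part of the day in the lost calls was not tested. The direct comparison with 10 mg/kg, on arrays of 1 day, is given below. In it Fos was higher at 300 mg/kg by 2.92 (limma adjusted p = 0.000101). At 10 mg/kg 3 of the 29 immediate early genes (10.3%) were called, all higher, near the 8.93% of all genes at that dose, and 15 of the 27 p53 targets (55.6%) were, also all higher. The difference between the groups was not tested. The changes of Atf3 at 10, 50 and 300 mg/kg were 0.39, 4.86 and 5.31.

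ATF4 targets and the chaperones of the endoplasmic reticulum, which the unfolded protein response induces, moved in opposite directions. Of 21 ATF4 targets, 11 rose and 4 fell (9 and 4 within 1 day), with a median of 0.85, whereas of 17 chaperone genes 1 rose and 14 fell, with a median of -0.57. Trib3, a pseudokinase that restrains ATF4, rose by 2.54 (SE 0.197, adjusted p = 1.58e-14). Ddit3, which encodes CHOP, had 8.74, 8.67, 8.40 and 8.92 in vehicle rats and 11.27, 10.87, 11.20 and 9.73 in dosed rats, a rise of 2.08, and rat 4 was again the lowest. Ppp1r15a, which encodes the phosphatase subunit GADD34, rose by 2.42 and Nupr1 by 2.16. Asns, which encodes asparagine synthetase, had a change of 0.31 that was not called (adjusted p = 0.529). Hspa5, which encodes the chaperone BiP, had 14.59, 14.67, 14.45 and 14.22 in vehicle rats and 14.09, 14.03, 13.93 and 13.94 in dosed rats. It fell by 0.49 without overlap, and the within-day value of -0.23 was not called (adjusted p = 0.173). Dnajb9 was the chaperone gene that rose, by 1.15. Within 1 day the chaperone counts were 1 higher and 9 lower.

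Promoters of the called ATF4 targets were searched for the C/EBP-ATF element, in 2 spellings on both strands. TGATGNAAN was found in 5 of 12 (41.7%) against 3.38% of all promoters, and TTGCATCA in 4 of 12 (33.3%) against 0.693%. As for the p53 targets, these shares describe the list and are not evidence of binding. The spellings overlap, because the reverse complement of the shorter is one form of the first 8 bases of the longer. Fgf21, a secreted growth factor, rose, but not within 1 day (0.62, adjusted p = 0.528). The promoters of Trib3, Nupr1 and Fgf21 are shown with the match to the longer spelling in capitals, here on the opposite strand. Herpud1, which fell by 0.63, also held the element.
Trib3, chr3:161275534-161275593, minus strand: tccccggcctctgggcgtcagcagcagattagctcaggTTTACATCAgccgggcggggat
Nupr1, chr1:190645923-190645982, minus strand: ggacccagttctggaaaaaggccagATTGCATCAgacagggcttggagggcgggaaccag
Fgf21, chr1:105221486-105221545, minus strand: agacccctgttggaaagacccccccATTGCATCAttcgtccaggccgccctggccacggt

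Dosed rat 4 lay below the other dosed rats in several groups that rose. The median change of the immediate early genes against the vehicle mean was 1.88, 1.84 and 1.86 in rats 1 to 3 and 0.69 in rat 4. For the ATF4 targets it was 1.17, 0.95, 1.01 and 0.32 in the 4 rats. For the tubulin and actin cytoskeleton genes it was 0.80, 0.88, 0.83 and 0.42, for the glutathione transferases 0.43, 0.39, 0.36 and 0.19, and for the respiratory chain genes 0.29, 0.27, 0.20 and -0.06. For the p53 targets it was 1.17, 0.94, 1.00 and 1.00, and for the ribosome biogenesis genes 1.06, 0.89, 0.94 and 0.77, so that rat 4 lay within or close to the others in both. All 4 rats had the same necrosis score. Without rat 4, 22 immediate early genes rose and 0 fell with a median of 1.91, and 12 ATF4 targets rose and 4 fell with a median of 1.13. The counts were then 14 and 0 for the cytoskeleton genes (median 0.88) and 11 and 0 for the glutathione transferases (median 0.43). For the respiratory chain genes they were 15 and 2 (median 0.25).

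**Figure D2:**
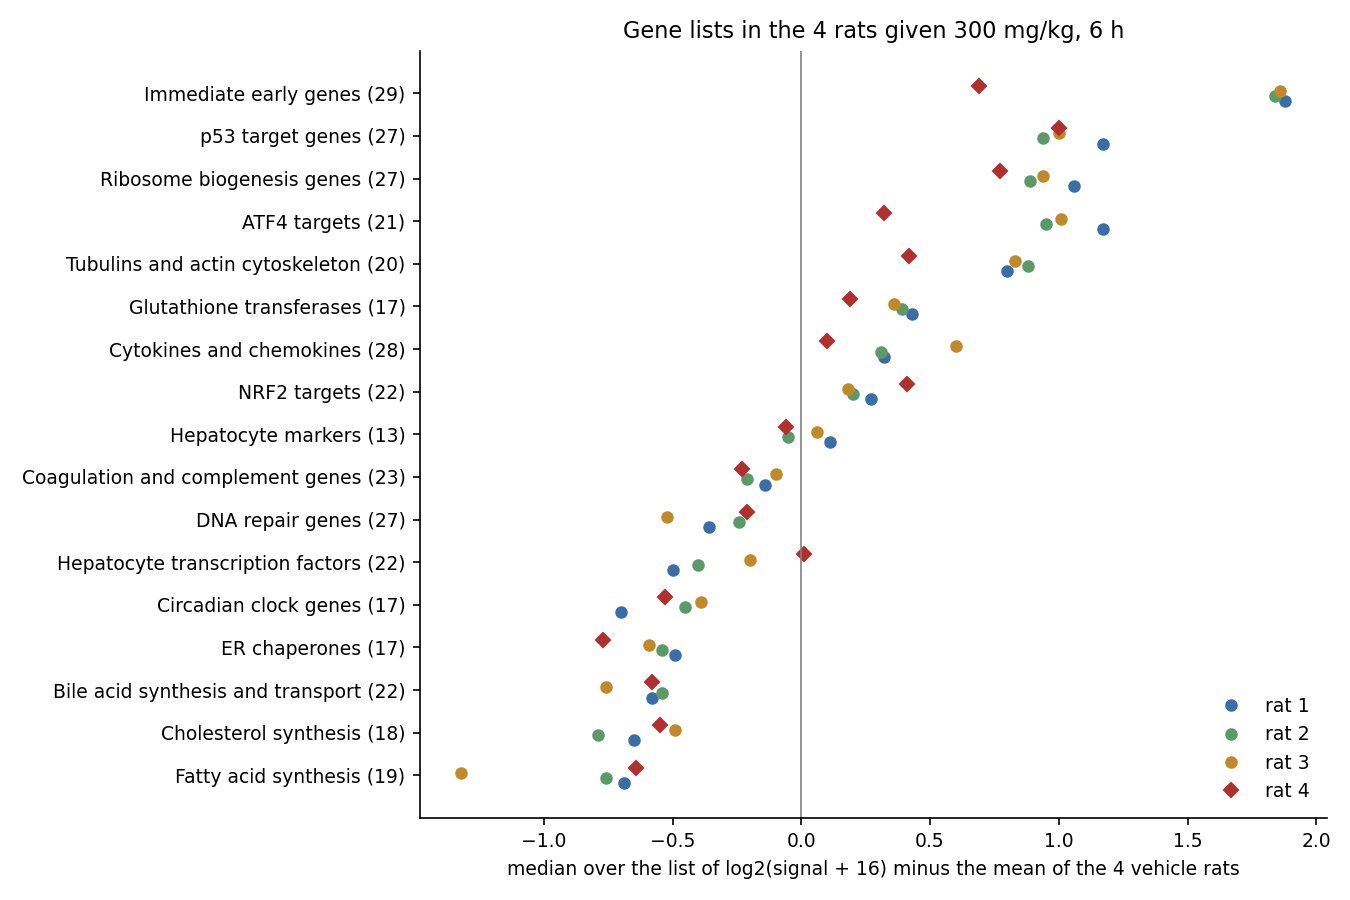
Median log2 change of the measured genes of each group (vertical, number of genes in brackets) in the 4 rats at 300 mg/kg and 6 h, against the mean of the 4 vehicle rats (horizontal). Points are rats 1 to 3 and diamonds are rat 4, which lay at 0.69 in the immediate early genes while the other 3 lay between 1.84 and 1.88.

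Antioxidant genes were raised in part. Of 22 NRF2 targets 10 rose and 4 fell (median 0.23), and of 17 glutathione transferases 10 rose and 0 fell (median 0.35). Within 1 day the counts were 9 and 2 for the NRF2 targets and 8 and 0 for the transferases. Srxn1, which encodes sulfiredoxin, the enzyme that restores oxidised peroxiredoxins, had 8.17, 7.72, 7.34 and 7.12 in vehicle rats and 12.06, 11.85, 11.99 and 11.86 in dosed rats. Its rise of 20.4-fold (log2 change 4.35, SE 0.197, adjusted p = 8.94e-22) rested on no single rat, since rat 4 lay among the others. Gstm3, a glutathione transferase, rose by 4.28 and Hmox1, haem oxygenase, by 1.58. Nqo1, a quinone reductase that is a common NRF2 marker, had a change of 0.11 that was not called (adjusted p = 0.649), and Gclm, the modifier subunit of glutamate-cysteine ligase, fell by 0.41, a call that was lost within 1 day (-0.37, adjusted p = 0.158), with centring (adjusted p = 0.0547) and in a fit of all arrays (adjusted p = 0.196). The antioxidant response element TGACNNNGC was found in 5 of 13 called NRF2 targets with a promoter (38.5%) against 10.1% of all promoters, on either strand. This share too describes the list and is not evidence of binding. Gpx2, a glutathione peroxidase, rose by 1.79 and Ephx1, microsomal epoxide hydrolase, by 0.93, and their promoters are shown with the element in capitals, on the opposite strand.
Gpx2, chr6:101230034-101230093, minus strand: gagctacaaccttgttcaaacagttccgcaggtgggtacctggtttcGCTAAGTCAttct
Ephx1, chr13:95263140-95263199, minus strand: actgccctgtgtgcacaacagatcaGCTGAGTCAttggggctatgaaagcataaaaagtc

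Genes for making ribosomes and the cytoskeleton rose. Of 27 ribosome biogenesis genes 24 rose and 0 fell (median 0.94, and 20 and 0 within 1 day). Nop56, a core protein of the nucleolar particles that modify ribosomal RNA, had 9.94, 10.07, 9.71 and 9.54 in vehicle rats and 12.64, 12.43, 12.31 and 12.04 in dosed rats. The groups were separate, and the rise was 2.54 (SE 0.137, adjusted p = 2.05e-19). Gnl3, the nucleolar GTPase nucleostemin, rose by 2.37 and Rrs1, a ribosome assembly factor, by 2.20. Of 20 tubulin and actin cytoskeleton genes 13 rose and 0 fell (median 0.71, and 9 and 0 within 1 day), led by Tubb6, a beta tubulin, with a rise of 4.47. The groups for DNA replication and mitosis held few calls at this time, with 2 higher and 3 lower of 21 and 1 higher and 0 lower of 22. Within 1 day these counts were 3 and 1, and 0 and 0.

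Lipid and bile acid genes fell. Of 19 genes of fatty acid synthesis 1 rose and 11 fell (median -0.74), of 18 genes of cholesterol synthesis 1 rose and 12 fell (median -0.60), and of 22 genes of bile acid synthesis and transport 0 rose and 13 fell (median -0.62). Within 1 day the counts were 1 and 9 for fatty acid synthesis, 0 and 11 for cholesterol synthesis and 0 and 8 for the bile acid genes. Cyp7a1 encodes the hydroxylase that sets the rate of bile acid formation. It had 13.02, 12.49, 12.86 and 12.98 in vehicle rats and 10.31, 10.34, 10.26 and 9.67 in dosed rats, so that it fell by 2.69 (SE 0.362, adjusted p = 3.42e-08). Nr0b2, which encodes SHP, a repressor of Cyp7a1, fell by 2.86, and Abcb11, the bile salt export pump, by 1.13. Srebf1, the transcription factor of fatty acid synthesis, had 12.64, 12.41, 12.63 and 12.37 in vehicle rats and 9.70, 9.38, 10.01 and 11.58 in dosed rats. It fell by 2.35 (SE 0.276, adjusted p = 1.51e-09), least in rat 4, and Acaca, acetyl-CoA carboxylase, fell by 2.32. Scd, stearoyl-CoA desaturase, had a change of -0.11 that was not called (adjusted p = 0.869).

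Genes for hepatocyte identity were split. Of 22 hepatocyte transcription factors 5 rose and 10 fell, and of 17 circadian clock genes 1 rose and 9 fell. Within 1 day the counts were 3 and 7, and 2 and 5. Larger falls were found in some regulators and receptors outside these groups, and those named here are long genes. Zbtb20 spans 739 kb, Esrrg 618 kb, Thrb 349 kb and Egfr 173 kb, and the pattern with gene length is described below. Zbtb20, a zinc finger repressor abundant in liver, had 12.22, 12.30, 12.34 and 12.29 in vehicle rats and 8.86, 9.39, 9.40 and 9.99 in dosed rats. It fell by 2.88 (SE 0.149, adjusted p = 7.53e-20) without overlap. Esrrg, which encodes the oestrogen-related receptor gamma, had 9.61, 9.87, 9.50 and 9.70 in vehicle rats and 4.51, 6.11, 4.68 and 5.85 in dosed rats, the largest fall of the named genes at 4.38 (SE 0.356, adjusted p = 6.12e-14). The thyroid hormone receptor gene Thrb fell by 3.18 and Egfr, the epidermal growth factor receptor, by 2.49. Of 13 hepatocyte markers 0 rose and 3 fell (2 and 2 within 1 day). Alb, albumin, had a change of 0.14 (adjusted p = 0.353) and Cyp2e1, a nitrosamine-oxidising P450, of 0.01 (adjusted p = 0.977), and neither was called.

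The falls were concentrated in long genes. The pattern was noticed after the values had been seen and is described with no test. Gene length was the span in the RefSeq annotation (GRCr8), which was found for 14167 genes with a median of 22.3 kb. Of the 20 largest falls 17 were in genes over 100 kb, with a median length of 416 kb, whereas the 20 largest rises had a median of 5.84 kb and 17 of them were under 20 kb. Plcb1, a phospholipase C of 711 kb, fell by 3.21, Magi1, a junction scaffold, by 3.09, and Arid1b, a chromatin remodelling subunit, by 3.06. Among the genes with the higher mean signal, 56.2% of the 1810 under 10 kb rose and 6.63% fell. Of the 222 genes over 200 kb 1.8% rose and 85.6% fell, and the share that fell was 22%, 61.7% and 79.3% in the classes between. The median change ran from 0.37 in the shortest class to -1.29 in the longest. Over all genes, dim ones included, the share that fell was 4.49%, 13.9%, 39.1%, 49.1% and 40.2% from the shortest class to the longest, so that the longest lay below the class before it, and the median of the longest was -0.50. Over all genes with a length Spearman's rho between length and change was -0.415, a value across genes of the same arrays, which are not independent replicates. Of all 769 genes over 200 kb 11 rose and 309 fell. Filip1l (243 kb) rose most, by 2.19, and Pde4b, a phosphodiesterase gene of 569 kb, rose by 0.60, a call that was lost without dosed rat 4 (0.52, adjusted p = 0.0637) and without vehicle rat 4 (adjusted p = 0.082). Nr0b2 and Cyp7a1 were the 2 genes under 20 kb among the 20 largest falls. The gene groups differed in length too. Median length was 4.33 kb in the immediate early genes and 6.43 kb in the cytoskeleton genes, which rose. It was 35.5 kb in fatty acid synthesis and 28.1 kb in the bile acid genes, which fell, but 12.1 kb in the chaperones, which also fell. The part of length in the change of any group was not tested.

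The length pattern was present in every dosed rat. The median change of genes over 200 kb minus that of genes under 10 kb was -1.78, -1.59, -1.69 and -1.36 in the 4 rats at 300 mg/kg and between -0.02 and 0.02 in the vehicle rats, each against the vehicle mean. It was -0.67 ± 0.094 (SD, n = 4) at 10 mg/kg, -1.39 ± 0.119 at 50 mg/kg and -1.61 ± 0.179 at 300 mg/kg. At the later times the mean was -1.65 (24 h) and -0.83 (48 h) for 300 mg/kg, against -0.17 and -0.06 for 10 mg/kg. Within 1 day the difference between the classes was -1.71. With monocrotaline, another hepatotoxic compound of the series, it was -0.46, -1.64 and -1.23 at 10, 50 and 300 mg/kg and 6 h. With genes of low signal included, the difference at 300 mg/kg and 6 h was -0.75 in place of -1.66 for the fitted changes.

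**Figure D3:**
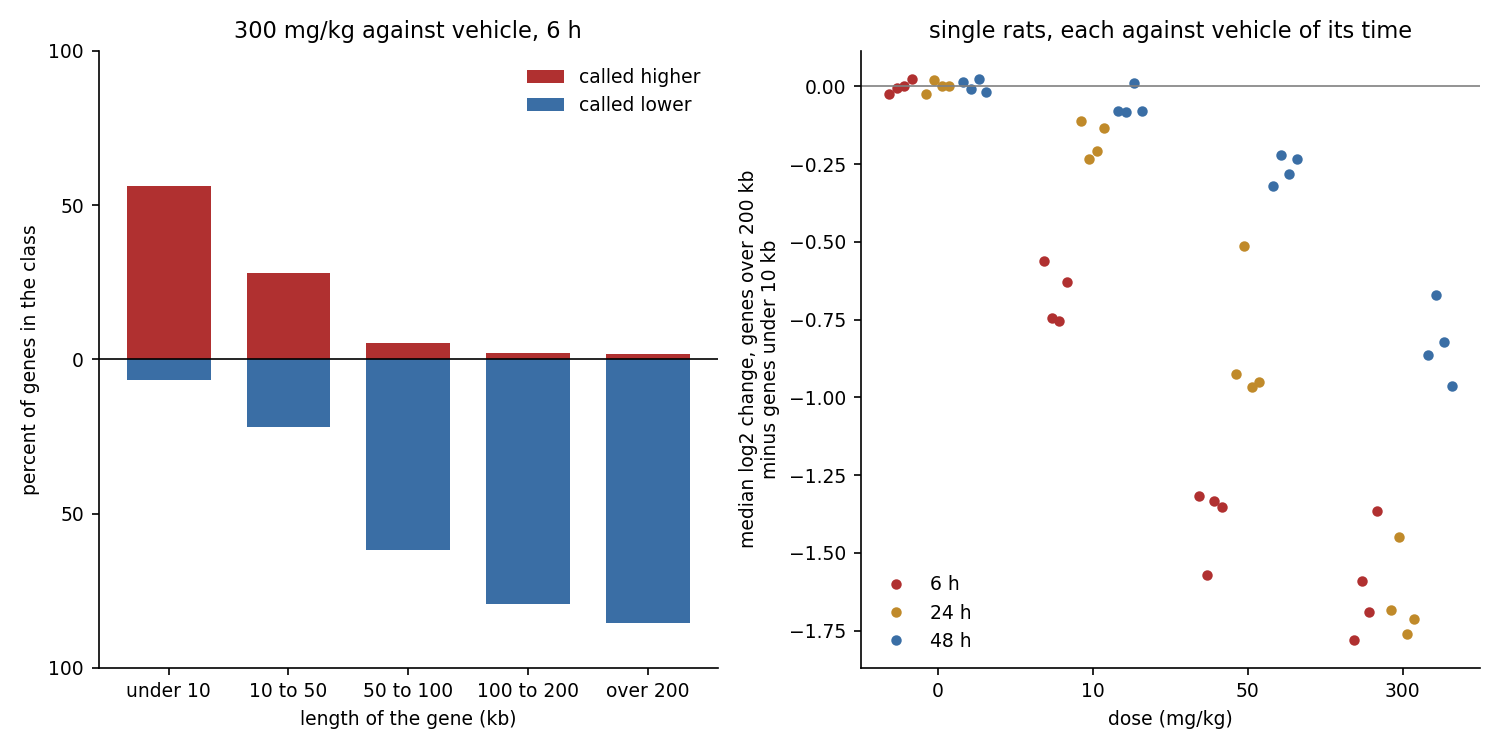
Left, percent of genes called higher (above 0) and lower (below 0) at 300 mg/kg and 6 h, by gene length in kb, among the genes with the higher mean signal. Right, the median log2 change of genes over 200 kb minus that of genes under 10 kb in single rats against the vehicle rats of their time, by dose in mg/kg, with 4 rats per group. The share called lower rose from 6.63% in the shortest class to 85.6% in the longest, and the 12 dosed rats at 6 h all lay below the vehicle rats.

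The share of markers called was 0 to 27.3% in the 4 immune cell groups and 35.7 to 50% in the endothelial, cholangiocyte and stellate groups, beside 37.3% of all genes. Of 12 sinusoidal endothelial markers 4 rose and 2 fell, of 10 markers of cholangiocytes and progenitors 3 rose and 1 fell, and of 14 stellate cell and matrix markers 4 rose and 1 fell. Within 1 day the counts were 3 and 1, 2 and 0, and 3 and 1. Of 11 Kupffer cell markers 3 rose and 0 fell (2 and 1 within 1 day), with a summed signal of 22980 to 25720 in vehicle rats and 25310 to 37050 in dosed rats. Of 12 markers of recruited macrophages and monocytes 1 rose and 2 fell, with a median change of 0.10 (0.03 within 1 day). Their sum, in which the brightest markers weigh most, was 27870 to 32570 in vehicle rats and 19580 to 21300 in dosed rats. Fn1, fibronectin, which hepatocytes also make, was 1 of the 2 that fell, by 0.88. Of 10 neutrophil markers 2 rose and 0 fell, while 3 had a mean signal under 16. The 2 that rose were S100a9, with 7.19, 6.53, 6.52 and 5.73 against 8.96, 9.68, 9.13 and 7.39, and S100a8, whose change of 1.90 was not called within 1 day (adjusted p = 0.336). Of 15 markers of T, NK and B cells 0 were called by limma (1 lower within 1 day). Of 28 cytokines and chemokines 9 rose and 2 fell (7 and 2 within 1 day). Ccl2, the monocyte chemoattractant, had 5.74, 5.85, 6.29 and 7.38 in vehicle rats and 10.12, 10.36, 10.64 and 8.80 in dosed rats, a rise of 3.67 (SE 0.612, adjusted p = 2.86e-06). The neutrophil chemoattractants Cxcl2 and Cxcl1 rose by 3.38 and 3.05, while Il6 had a change of -0.31 that was not called (adjusted p = 0.601). The part of cell number in these values was not tested.

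What the dose of 300 mg/kg added to 10 mg/kg was tested directly, on arrays of 1 day. Between them 4532 genes differed (31.9%), with 2069 higher at 300 mg/kg (14.6%) and 2463 lower (17.3%). The higher genes made up 45.7% of these calls, and 57.3% when each array was centred on its median. Of the immediate early genes 18 were higher and 2 lower, and of the ATF4 targets 12 and 2, whereas of the p53 targets 11 were higher and 3 lower with a median difference of 0.17. The largest differences were Atf3 at 4.92 and Tnfrsf12a at 4.08, followed by Maff at 3.95. Kif13a, a kinesin, at -2.84 and Cyp7a1 at -2.45 led the genes that were lower. Between 300 and 50 mg/kg 22 genes differed (0.155%) by limma, and 1850 had an unadjusted p under 0.05. Adgra3, an adhesion receptor, was lower at 300 mg/kg by 1.42 on the log2 scale (adjusted p = 0.000236) and Arid1b by 0.79 (adjusted p = 0.018). Sgsm2 was higher at 300 mg/kg by 1.89 (adjusted p = 0.0031), while its change against vehicle of 0.50 was not called. This small count depended on single rats, since without rat 4 at 300 mg/kg it was 914, without rat 2 at 50 mg/kg 440, without rat 1 at 50 mg/kg 2, without rat 1 at 300 mg/kg 3, without rat 3 at 300 mg/kg 9 and without rat 3 at 50 mg/kg 10.

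The response at 6 h differed from that at 24 h in lipid genes, cytokines and markers of recruited cells. The arrays of these times came from partly different hybridisation days, so time and day are not fully separate. The group counts given here take no account of the day. At 24 h, 6562 genes differed from the vehicle rats of that time (46.2%). The change at 24 h minus that at 6 h, each against its own vehicle, was called in 4078 genes (28.7%), with 2490 higher (17.5%) and 1588 lower (11.2%). The higher genes made up 61.1% of these calls, and 49% when arrays were centred on their medians, and with the day as a fixed term 970 genes were called in all. Of the p53 targets 5 were higher and 2 lower in this difference, and Cdkn1a had changes of 4.84 at 6 h and 4.20 at 24 h. Of the genes of fatty acid synthesis 0 were higher and 16 lower at 24 h. Scd had a change of -0.11 at 6 h and -5.96 at 24 h, and Cyp7a1 of -2.69 and -6.61. Of the chaperones 11 were higher and 0 lower, and of 28 cytokines 14 and 1. Ccl7, a monocyte chemoattractant, had a change of 0.92 at 6 h that was not called (adjusted p = 0.29) and of 6.44 at 24 h. Spp1, osteopontin, a gene of activated macrophages and bile duct cells, had changes of 0.03 and 4.84. Recruited macrophage markers had 8 higher and 0 lower of 12 in the difference. Pln, which encodes the calcium pump inhibitor phospholamban, had 5.77, 5.42, 5.97 and 7.38 in vehicle rats at 6 h and 9.53, 9.19, 9.25 and 9.58 in dosed rats, with a change of 3.25 at 6 h and 7.13 at 24 h. The mean necrosis score at 300 mg/kg was 1 at 6 h, 2 at 24 h and 4 at 48 h.

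Monocrotaline, a plant alkaloid that the liver also converts to a reactive metabolite, was the other compound given at 300 mg/kg for 6 h, and all 4 of its rats had a necrosis score of 1. Its own vehicle rats and dosed rats were hybridised on different days, so that dose and day cannot be told apart there. Monocrotaline changed 5690 genes (40%) against its vehicle. The difference between the compounds was called in 1688 genes (11.9%), with 993 higher with N-nitrosomorpholine (6.98%) and 695 lower (4.89%). The higher genes made up 58.8% of these calls, and 83.6% when arrays were centred on their medians. The count was 705 in a fit of all arrays and 549 with the day as a fixed term. Of the p53 targets 13 were higher with N-nitrosomorpholine and 0 lower, with a median difference of 0.85. Cdkn1a had a change of 4.84 with N-nitrosomorpholine and 2.98 with monocrotaline (adjusted p of the difference = 3.63e-05), Phlda3 of 3.34 and 1.62 (adjusted p = 2.87e-07) and Mdm2 of 2.11 and 1.14 (adjusted p = 0.00419). Of 15 heat shock genes 0 were higher and 9 lower. Hspa1a, the inducible chaperone HSP70, had changes of 1.69 and 5.01 (adjusted p = 2.84e-06), and Hspb1, a small heat shock protein, of 0.38 and 3.51 (adjusted p = 1.67e-08). Ddit3 was also lower with N-nitrosomorpholine, with changes of 2.08 and 4.25 (adjusted p = 3.13e-07). Pln was higher, with changes of 3.25 and 0.07 (adjusted p = 2.13e-05). Among immediate early genes 1 was higher and 1 lower, and for Atf3 the changes were 5.31 and 6.87 (adjusted p = 0.0988).

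**Figure D4:**
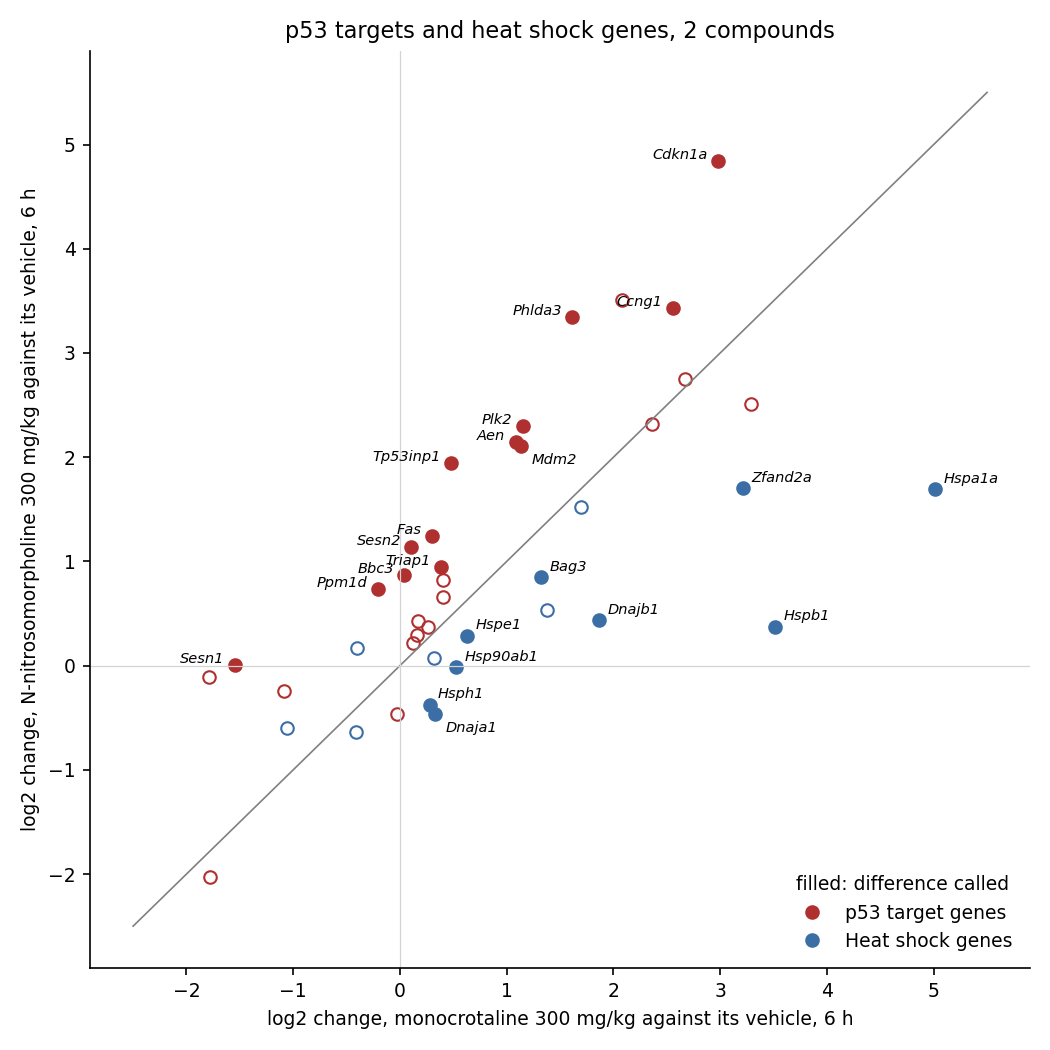
Log2 change at 300 mg/kg and 6 h with monocrotaline (horizontal) and N-nitrosomorpholine (vertical), each against its own vehicle rats with 4 rats per group, for p53 targets and heat shock genes. Points are genes, filled where the difference between the compounds was called, and the line marks equal change. The p53 targets with a called difference lie above the line and the heat shock genes with one lie below it.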

How the data were processed

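Liver RNA of single rats was hybridised to Affymetrix rat arrays. The authors deposited log2 values of MAS5 signals, scaled so that the mean of each array after trimming 2% at each end was 500. No source used here gives a version for MAS5, which the submitters' processing notes name. Values were returned to linear signal and analysed as log2(signal + 16), with no other normalization. The arrays held 31099 probe sets, 57 of which were controls. The platform annotation paired 20826 with 1 symbol, 436 with several and 9780 with none. The probe set of highest mean stood for a gene wherever it had several (4525 of 14217 genes), and 14167 were found in RefSeq (GRCr8) by gene ID. Probe sets whose names end in _s_at or _x_at may match several transcripts. No depth applies to arrays, and 4 rats per group limit the precision.

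The 48 N-nitrosomorpholine arrays (12 groups of dose and time) were fitted with limma 3.58.1 in R 4.3.3, with an intensity trend in the moderated variance, and the monocrotaline arrays joined the fit for the difference between compounds. P values were adjusted by Benjamini-Hochberg over all genes of a contrast, 2-sided, and genes were called at an adjusted p under 0.05. The script was tested on simulated data. Gene lists were described by counts and medians only. The members and lists were chosen with earlier results of these data known. Named genes were the 20 largest rises and falls among called genes without overlap between groups, up to 6 called members per list and direction, the p53 list, and the 10 largest differences per contrast and direction. Others named, such as Alb, Scd, Nqo1, Igfbp1 and Mgmt, are members of the lists or were chosen after their values were seen. Alternatives covered scaling, pseudocount, low signals, probe sets, arrays in the fit, hybridisation day and single arrays. Probe sets without a single symbol were left out of the gene counts.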

Additional observations from a re-analysis of the deposited data

Results flagged for a closer look

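Of 166 groups of 4 rats, 2 for each of the genes described, 16 (9.64%) held a rat far from the other 3. The rule would mark about 1 in 20 independent groups. These groups share the same rats, and some genes were chosen after their values were seen, so that rate is no reference here. In 14 of the 16 it was dosed rat 4. Its log2 signal was 10.36 for Atf3 (12.18 to 12.46 in the other dosed rats), 11.7 for Jun, 5.96 for Fos, 8.76 for Myc, 11.61 for Gadd45a, 13.05 for Cdkn1a, 8.57 for Gdf15, 9.54 for Tubb6 and 11.41 for Rhob, a small GTPase. It was 6.27 for Cxcl2, 11.75 for Dnajb9, 9.67 for Cyp7a1 and 6.44 for Pnpla3, a lipid droplet protein, all the lowest of the group. Igfbp1, a binding protein for insulin-like growth factors, lay at 8.17 in this rat and at 12.22 to 12.74 in the other dosed rats. Its change was 0.54 with this rat (adjusted p = 0.661) and 1.61 without it (adjusted p = 0.0995), and neither was called. Among vehicle rats, Tnfrsf12a was 7.63 in rat 1 against 7.19 to 7.21, and Mdm2 was 9.95 in rat 4 against 9.37 to 9.44.

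The change at 300 mg/kg differed between 24 h and 6 h in 4078 genes by the test of the difference itself, with a difference of 5.52 for Ccl7 and -5.85 for Scd.

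Among 10216 probe sets that name no single gene and entered no gene count, 2122 (20.8%) differed between 300 mg/kg and vehicle at 6 h, 964 higher and 1158 lower.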

How the results depend on the processing

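The count for 300 mg/kg against vehicle stayed within 1.5 times of 5301 under every alternative except the day as a fixed term in a fit of all arrays (2649). Leaving out 1 array gave 4824 to 5325 there, 3915 to 4767 for 300 against 10 mg/kg, 3766 to 4258 for 24 h against 6 h, 1425 to 1710 for the difference from monocrotaline and a necrosis difference of 1 throughout. The day as a fixed term gave 970 for 24 h against 6 h and 549 for monocrotaline, and a fit of all arrays gave 705 for monocrotaline. The 22 genes between 300 and 50 mg/kg became 8 with quantile normalization, 4 with centring, 152 among genes of higher signal, 70 with a pseudocount of 1, 8 with one of 64, 0 when only these groups were fitted, and 2 to 914 when 1 array was left out. With each array centred on its median, higher genes made up 56.4% of the calls for 300 mg/kg against vehicle, in place of 48.8%. The length difference (an alternative chosen after seeing the data, as were those for the lists) ran from -1.69 to -1.60 when 1 array was left out and was -0.75 with dim genes included. The cause of these shifts was not tested.

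Of 334 named genes, 160 lost the call in some setting, and of 6289 values 498 did so, 153 of them with the day as a fixed term. Hsph1 (-0.37) reversed to 0.037 with the day as a fixed term and within 1 day, and Tgfbr1 (-0.48) to 0.019 with the mean of probe sets. The consensus correlation of the day was 0.121. No paired analysis was possible because the labels number no replicates. The added 16 understates the changes of dim genes, and on arrays the signal over background, not a read depth, limits these.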

Other observations

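Groups for other liver functions held smaller changes at 6 h. Of 23 coagulation and complement genes 1 rose and 11 fell with a median of -0.13, with 0 and 5 within 1 day, and at 24 h 0 rose and 20 fell. Of 25 genes of the urea cycle and amino acid breakdown 3 rose and 7 fell, with counts of 0 and 3 within 1 day. Of 14 nitrosamine-oxidising and other Cyp2 genes 0 rose and 3 fell at 6 h (0 and 1 within 1 day), while 1 rose and 11 fell at 24 h. Of 24 respiratory chain genes 12 rose and 2 fell with a median of 0.16 (14 and 1 within 1 day), and in the difference between 24 h and 6 h 0 were higher and 18 lower. Of 24 proteasome subunits 5 rose and 8 fell (7 and 5 within 1 day). Of 19 interferon-induced genes 7 rose and 1 fell (6 and 1 within 1 day), and of 21 acute phase genes 2 rose and 1 fell (2 and 0). Of 20 genes of the Bcl2 family and cell death 8 rose and 2 fell (4 and 3 within 1 day), and Mcl1, an anti-apoptotic member, rose by 0.78.

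Rhob and Hsd3b1, among the 20 largest rises, belonged to none of the groups. Rhob, a small GTPase of the endosome and cytoskeleton, had 9.15, 9.27, 8.71 and 8.50 in vehicle rats and 13.29, 13.31, 13.17 and 11.41 in dosed rats, a rise of 3.88 (SE 0.252, adjusted p = 6.81e-17). Hsd3b1, a steroid dehydrogenase, had 4.43, 4.65, 4.73 and 4.84 in vehicle rats and 7.97, 7.85, 8.55 and 8.79 in dosed rats. Its vehicle values were near the floor of the scale, and it rose by 3.62 (adjusted p = 1.16e-09). At 24 h its change was 0.59 and was not called (adjusted p = 0.276), and the difference between the times was -3.03 (adjusted p = 8.07e-05). In the immediate early group, Id1, an inhibitor of basic helix-loop-helix factors, rose by 3.34.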
